A study of Mus musculus with 4 samples.

Results

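The genes described here encode the lysosome and the machinery of autophagy in mouse pancreatic islets. They were chosen by name, from the Atg, V-ATPase (Atp6v) and cathepsin (Cts, without Ctss) families and from 23 further genes such as Lamp1, Tfeb and Sqstm1. Of 82 such genes annotated as protein coding, 68 reached a normalized read count of 10 in 2 or more of the 4 libraries and were tested, among 16589 tested genes and 55487 in the table. The rule used names and this limit on the level, and no difference between groups. Just inside that limit lay Ctsk, whose second highest library value was 16.3, and just outside it Atp6v0a4, at 8.33.

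Libraries were made from poly(A)-enriched RNA of fresh pancreatic islets, which hold the insulin and glucagon cells, of C57BL/6 mice aged 30 weeks. All mice carried the Ggcx flox/flox allele, in which Ggcx, the gene of the vitamin K-dependent gamma-glutamyl carboxylase, can be removed by Cre. The control group had Ggcx flox/flox alone and the knockout group had Ggcx flox/flox with Pdx1-Cre, a transgene driven by the promoter of a factor of the pancreatic lineage. Each library pooled islets of 2 mice, and each group had 2 libraries. No library carried Cre with intact Ggcx, so Cre and the loss of Ggcx cannot be told apart. Control libraries are named by their columns in the deposited table (2 and 3), whose numbers could not be tied to single samples.

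Ggcx stood at 3971 and 3981 normalized counts in controls and at 234.2 and 643.4 in knockouts. The libraries held 47624630 to 51756221 reads. Ins1, Ins2 and Iapp, defining transcripts of islet beta cells, were the highest beta-cell markers in every library. Alpha-cell markers were higher in both knockout libraries for 5 of 6 genes (summed 1180689 to 1375980 in controls and 1391107 to 1673784 in knockouts). Acinar markers were lower for all 10 tested (13738 to 15491 against 6762 to 11552), and stellate and fibroblast markers were higher for 7 of 9 (10613 to 12389 against 12800 to 13386). The other stellate markers, Rgs5 and Acta2, overlapped between groups, and Rgs5, at 8855 to 10117 counts, made up most of each sum. Of all tested genes, 22.0% were above both controls in both knockout libraries and 23.0% below both. The sums of 13 macrophage markers overlapped, at 7212 to 7944 in controls and 7308 to 7658 in knockouts. In whole islets, fewer cells of a type and less RNA per cell cannot be told apart.

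Lysosomes are acidic compartments in which hydrolases degrade proteins, lipids, glycans and glycogen. The vacuolar ATPase (V-ATPase) pumps protons to acidify them, and in endocrine cells it also acidifies secretory granules. Autophagy encloses cytoplasm in a double membrane, the autophagosome, which then fuses with lysosomes. In beta cells this route is known to remove aged organelles and excess insulin granules. TFEB, TFE3 and MITF are related transcription factors that switch on many genes of both systems when nutrients are scarce.

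None of the 68 genes passed the test of knockout against control (limma, Benjamini-Hochberg adjusted p under 0.05 over all tested genes), where 0.621% of all tested genes did (0.247% higher and 0.374% lower). The smallest adjusted p was 0.128, for Hexa. At an unadjusted p under 0.05, 9 genes were higher in knockout islets (6.74% of all tested genes were) and 2 were lower (7.34%). On the recovered reads, edgeR and DESeq2 called 0 of the genes as well, with backgrounds of 0.772% and 2.35%. The authors' deposited table gives 65 of them an adjusted p, with 0 under 0.05.

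Differences were small. The median log2 fold change of the 68 genes, knockout over control, was 0.02 against 0.00 over all tested genes. For 50 of them the 95% interval of the log2 fold change lay within 0.25 of 0 on both sides. That held for 6200 of all 16589 tested genes, each of them among the 11038 with a mean of at least 200 counts. All 50 members were among the 65 with such a mean, so the count depends on their level. Together they made up 0.782% and 0.796% of the summed counts in controls and 0.795% and 0.791% in knockouts. Single values ran from -0.54 (Atg4a-ps) to 0.69 (Ctsk), both genes of very low counts, and Ctsh and Ctsc were the only others beyond 0.25 on either side. Both knockout libraries lay above both controls for 26 genes (38.2%, against 22.0% of all tested genes) and below both for 9 (13.2%, against 23.0%). With libraries scaled to a common upper quartile these counts were 33 and 6, and with a common total 23 and 11. Over all tested genes, the shares above and below were 26.2% and 18.9% with the upper quartile and 20.5% and 24.9% with the common total. Abundant genes leaned lower. Of 11038 tested genes with a mean of at least 200 counts, 2190 lay above both controls and 2978 below both. Their log2 fold change was above 0 for 45.4%. Of the 65 members with such a mean, 25 lay above both controls and 9 below both.

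**Figure D1:**
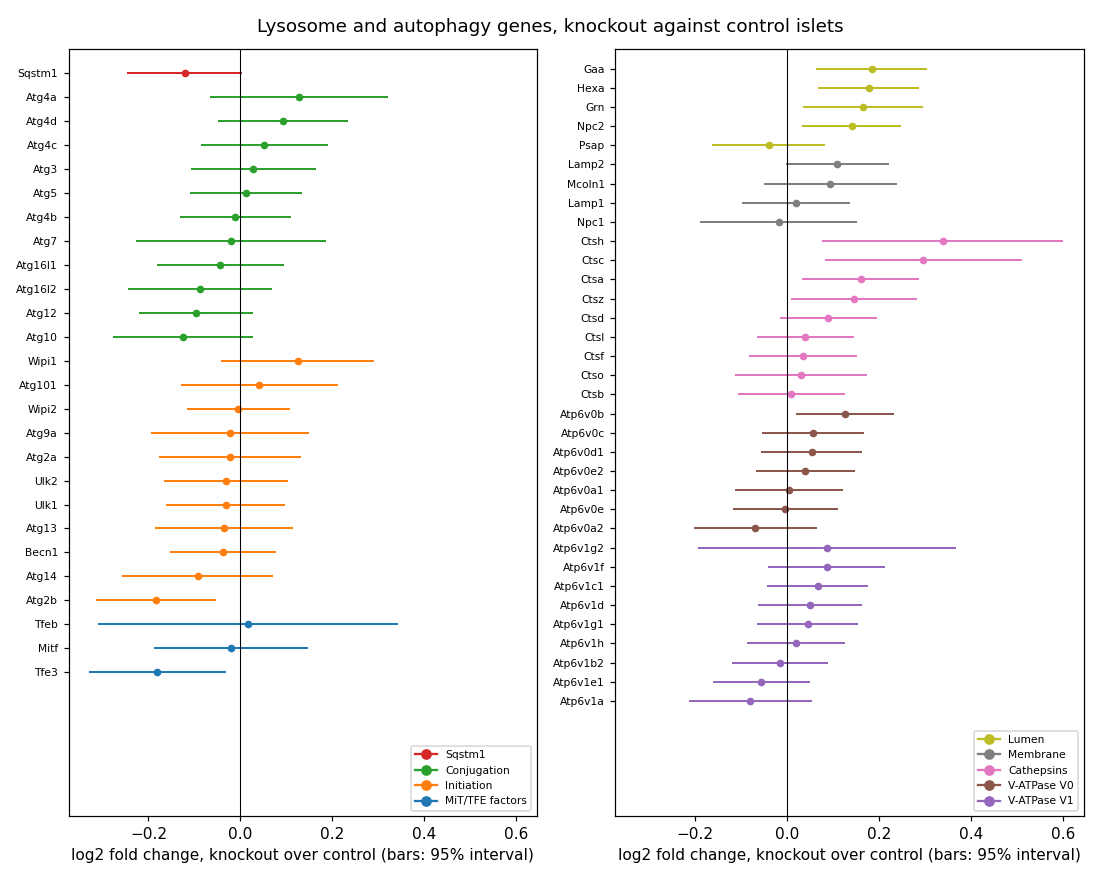
Log2 fold change (knockout over control, 2 libraries each) of 60 of the 68 genes with limma 95% intervals, coloured by role (Ctsk, Atg9b and Atg4a-ps, below 32 counts in each library, are not drawn, nor are 5 others). Most intervals cross 0; those of Hexa, Gaa, Npc2, Grn, Ctsa, Ctsc, Ctsh, Ctsz and Atp6v0b lie above it, and those of Atg2b and Tfe3 below it.

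Of the 3 MiT/TFE regulators, 1 had a log2 fold change above 0 and 2 below, and only Tfe3 separated the groups. Their median of -0.02 moved to -0.20 when control column 2 was left out. It was -0.04 when control column 3 or knockout replicate 1 was left out, and -0.06 when knockout replicate 2 was. Tfeb (chr17:47737030-47792419, GRCm38) had 285 and 384 normalized counts in the controls and 348 and 322 in the knockouts, so both knockout libraries fell between the controls. Its log2 fold change was 0.02 ± 0.14 (SE; limma adjusted p = 0.979), and the interval from -0.31 to 0.34 is among the widest here. It was -0.20 without control column 2 and 0.23 without control column 3.

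Tfe3 (chrX:7762560-7775202) had 2006 and 2112 counts in controls and 1735 and 1900 in knockouts. Both knockout libraries were below both controls, with a log2 fold change of -0.18 ± 0.06 that did not pass (limma adjusted p = 0.251). Mitf had 830 and 802 against 781 and 828 counts, with overlapping groups (-0.02 ± 0.07, limma adjusted p = 0.942). Per kilobase of exon, Tfe3 was the most abundant of these factors at 209 normalized counts, before Mitf at 131 and Tfeb at 59.0.

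These factors are known to bind CLEAR elements, whose core is the palindrome TCACGTGA, an extended form of the E-box CACGTG that it contains. In RefSeq promoters on GRCm38.p6, from 250 bases before to 50 after the start site, 55 of the 68 genes had an entry. TCACGTGA was present in 7 of these 55 (12.7%) and in 243 of the 11927 tested genes with an entry (2.04%). CACGTG was present in 15 (27.3%) and in 1343 (11.3%). Each motif reads the same on both strands. The 7 genes were Ctsa, Ctsd, Atg3, Mcoln1, Atp6v0d1, Atp6v0e and Atp6v1a. Their median log2 fold change was 0.05, against 0.03 for the 48 without the motif, a difference that was not tested. A match is a description of the letters and not a shown binding site.

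The windows below show the match in 6 of these genes, on the gene's strand, 5′ to 3′, with TCACGTGA in capitals. They span the proton pump, the lysosomal channel, conjugation and proteases. In genome order of their chromosomes they are Ctsa at chr2:164833749-164833778 (plus strand), Ctsd at chr7:142387908-142387937 (minus), Mcoln1 at chr8:3500462-3500491 (plus), Atp6v0d1 at chr8:105566050-105566079 (minus), Atp6v1a at chr16:44139373-44139402 (minus) and Atg3 at chr16:45158746-45158775 (plus).
Ctsa: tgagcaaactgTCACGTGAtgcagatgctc
Ctsd: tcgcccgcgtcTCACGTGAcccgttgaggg
Mcoln1: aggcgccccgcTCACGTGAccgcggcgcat
Atp6v0d1: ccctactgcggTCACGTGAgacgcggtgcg
Atp6v1a: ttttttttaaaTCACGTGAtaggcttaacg
Atg3: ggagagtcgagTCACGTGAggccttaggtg

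Counting the first base of the RefSeq gene as 0, the match began at position -4 in Atp6v0d1, -13 and again at 4 in Ctsa, -46 in Mcoln1, -72 in Atg3, -99 in Ctsd and -132 in Atp6v1a. The log2 fold changes of these genes were above 0 except in Atp6v1a. They were 0.05 for Atp6v0d1, 0.16 for Ctsa, 0.09 for Mcoln1, 0.03 for Atg3, 0.09 for Ctsd and -0.08 for Atp6v1a. Atp6v0e, whose window is not shown, lay at -0.00.

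The group that starts autophagy comprises the kinases ULK1 and ULK2 with ATG13 and ATG101, the lipid kinase partners Beclin 1 and ATG14, the lipid transfer proteins ATG2A and ATG2B, the scramblases ATG9A and ATG9B, and the lipid readers WIPI1 and WIPI2. All 12 genes were measured. Of these, 3 had a log2 fold change above 0 and 9 below 0, with a median of -0.03 (-0.02 without control column 2 and -0.01 without knockout replicate 2). Both knockout libraries were below both controls for Atg2b and Atg14 (16.7%, against 23.0% of all tested genes). They were above both for Atg101 (8.33%, against 22.0%).

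Atg2b (chr12:105616136-105685211) had 2456 and 2370 counts in controls and 2185 and 2067 in knockouts. Its log2 fold change was -0.18 ± 0.06 (limma adjusted p = 0.186), the largest shift of the group apart from the scarce Atg9b. Exons of Atg2b share 2.85% of their bases with Gskip on the opposite strand. Wipi1 had 3053 and 2626 counts in controls and 3028 and 3147 in knockouts (0.12 ± 0.07, limma adjusted p = 0.504). Control column 2 was as high as the knockouts and control column 3 lower. The log2 fold change was 0.23 without control column 2 and 0.02 without control column 3.

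Becn1 had 4896 and 4762 counts in controls and 4814 and 4602 in knockouts (-0.04 ± 0.05, limma adjusted p = 0.802). Cntd1, on the opposite strand, covers 43.9% of its exon bases, so reads of the 2 genes may not be told apart if the counting ignored strand, a setting not given in the sources used here. Ulk1 had 1935 and 1870 against 1891 and 1830 counts (-0.03 ± 0.06, limma adjusted p = 0.856). Atg13, the most abundant gene of the group per kilobase at 1385, had 6536 and 5720 counts in controls and 5882 and 6054 in knockouts (-0.04 ± 0.07, limma adjusted p = 0.866). The groups overlapped in all of these. Ulk2, Atg2a, Atg9a and Wipi2 had log2 fold changes from -0.03 to -0.00. Atg9b was near the limit of detection, with 15.6 to 23.0 counts in any library, while its paralogue Atg9a had 813 to 891.

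Conjugation attaches small ubiquitin-like proteins to lipid on the autophagosome. ATG7 and the E2-type enzymes ATG3 and ATG10 pass on the ubiquitin-like proteins, ATG12 joins ATG5 and ATG16L1, and the ATG4 proteases trim and recycle the attached proteins. Of 11 genes, 5 were above 0 and 6 below, and the median of -0.01 had no stable sign. Leaving out control column 2 gave -0.04 and leaving out control column 3 gave 0.03. It was -0.02 without knockout replicate 2, 0.0012 without knockout replicate 1 and 0.0073 with a common upper quartile. Atg10 had 967 and 986 counts in controls and 900 and 891 in knockouts (-0.12 ± 0.07, limma adjusted p = 0.457). Atg12 had 2475 and 2396 against 2239 and 2316 counts (-0.10 ± 0.05, limma adjusted p = 0.484). Both had knockout libraries below both controls.

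Atg3 overlapped between groups, with 2586 and 2828 counts in controls and 2777 and 2740 in knockouts (0.03 ± 0.06, limma adjusted p = 0.883). Among the proteases, Atg4a, Atg4c and Atg4d were above both controls in both knockout libraries, with log2 fold changes of 0.13, 0.05 and 0.09, and Atg4b lay at -0.01. These 3 were the only conjugation genes above both controls (27.3% of 11, against 22.0% of all tested genes). Atg10 and Atg12 were the only 2 below both (18.2%, against 23.0%). Exons of Atg4d share 19.3% of their bases with Kri1 on the opposite strand. Atg5, the most abundant conjugation gene per kilobase at 957, lay at 0.01, and Atg7, the least abundant at 110, at -0.02. The row Atg4a-ps, named as a pseudogene but annotated as protein coding, met the rule with 13.4 to 31.2 counts. Its reads may be shared with Atg4a.

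SQSTM1 is a receptor that carries ubiquitinated cargo to the autophagosome. Its gene was among the most abundant of the 68, at 7489 normalized counts per kilobase (rank 5). Sqstm1 (chr11:50199366-50210827) had 26222 and 26139 counts in controls and 23075 and 25097 in knockouts. Both knockout libraries were lower, knockout replicate 1 more so, with a log2 fold change of -0.12 ± 0.05 (limma adjusted p = 0.364). It was -0.18 without knockout replicate 2 and -0.06 without knockout replicate 1. Exons of Sqstm1 share 17.3% of their bases with Mrnip on the opposite strand.

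**Figure D2:**
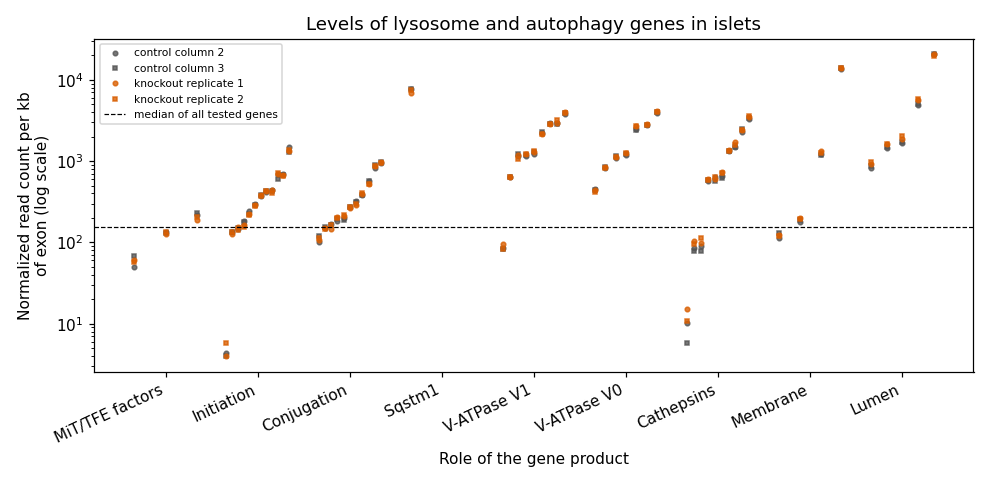
Normalized read count per kilobase of exon (log axis) for 62 genes with a role, by role and library, with the median of all tested genes (153) as a dashed line. Psap (20420) and Lamp1 (13875) are highest. The genes below the line include Mitf (131), Tfeb (59.0), Ctsc (90.5) and Ctsh (94.7). Control and knockout points lie close together.

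The V-ATPase has a soluble V1 sector that hydrolyses ATP and a membrane V0 sector that moves protons. Several subunits have isoforms that are used in particular tissues. In islets 16 of 22 subunit genes passed the filter, and together they made up 0.189% and 0.193% of the summed counts in controls and 0.194% and 0.191% in knockouts. For most subunits with isoforms, 1 gene supplied nearly all of the RNA. Per kilobase, the B subunit came from Atp6v1b2 (2905 in controls and 2873 in knockouts), while Atp6v1b1, the kidney and inner ear form, had 0 reads in every library. Atp6v0d1 stood at 3943 and 4094, and its osteoclast-associated paralogue Atp6v0d2 had 0 reads. Atp6v1e1 stood at 2253 and 2167, and the testis form Atp6v1e2 had 0 reads. A count of 0 allows up to 3 reads, or about 3.12 normalized counts in the shallowest library, for counting error only.

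Atp6v1c1 stood at 1176 and 1231 per kilobase, while Atp6v1c2 had at most 1.04 normalized counts in a library, the value of 1 read. Atp6v1g1 stood at 3869 and 3990, and the neuronal form Atp6v1g2 at 84.5 and 89.9. The a subunit was divided among several genes. Atp6v0a1 had 1117 and 1120 per kilobase, Atp6v0a2 449 and 428, and Tcirg1, the a3 gene, which lies outside the naming rule, 46.9 and 51.3. Atp6v0a4, the kidney form, had at most 10.5 normalized counts in a library. The e subunit drew on Atp6v0e2 (2757 and 2834) and Atp6v0e (838 and 836). This order of isoforms was the same in both groups.

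**Figure D3:**
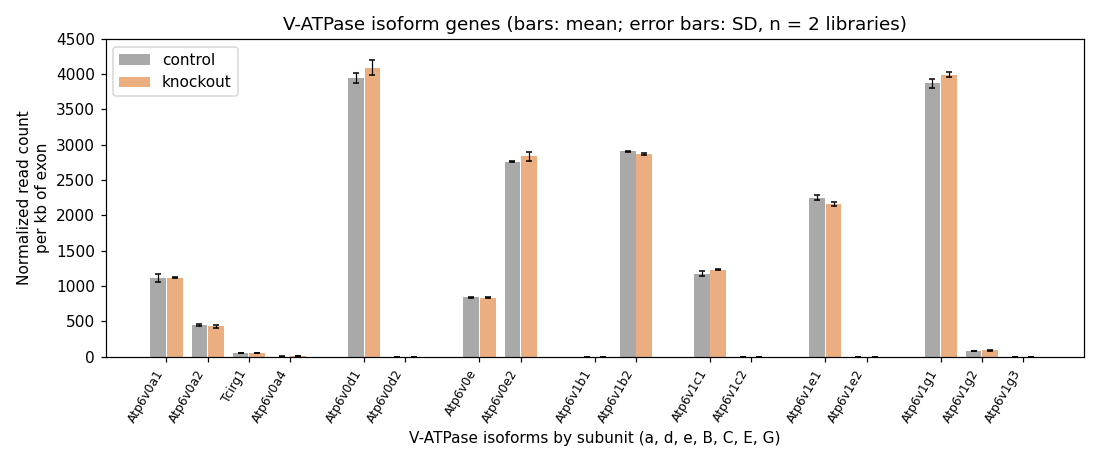
Mean normalized read count per kilobase of exon for V-ATPase isoform genes by subunit in control and knockout islets (error bars SD, n = 2 libraries). Atp6v0d1 (3943 in controls) and Atp6v1g1 (3869) are highest, and Atp6v1b1, Atp6v0d2 and Atp6v1e2 are at 0.

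Of the 9 V1 genes, 6 were above 0 and 3 below (median 0.04), and of the 7 V0 genes, 5 were above 0 and 2 below (median 0.04). In the V0 sector, Atp6v0b, a proteolipid ring subunit, had 5058 and 5019 counts in controls and 5519 and 5477 in knockouts. Its replicates agreed closely and the groups did not overlap, with a log2 fold change of 0.13 ± 0.05 (limma adjusted p = 0.265). Exons of Atp6v0b share 11.8% of their bases with an opposite-strand gene. Atp6v0d1 had 6983 and 7158 against 7470 and 7210 counts (0.05 ± 0.05, limma adjusted p = 0.678). Atp6v0a1 had 7067 and 7584 against 7345 and 7339 (0.00 ± 0.05, limma adjusted p = 0.985), and Atp6v0a2 3097 and 2942 against 2979 and 2780 (-0.07 ± 0.06, limma adjusted p = 0.658).

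In the V1 sector Atp6v1b2, the B subunit that sits beside the catalytic A subunit, had 15454 and 15372 counts in controls and 15300 and 15180 in knockouts. The groups did not overlap, yet the log2 fold change was only -0.02 ± 0.04 (limma adjusted p = 0.918; 0.0025 with a common upper quartile). Atp6v1e1 had 9158 and 9363 against 8990 and 8826 (-0.06 ± 0.05, limma adjusted p = 0.651). Atp6v1f had 3147 and 3024 against 3171 and 3379 (0.09 ± 0.06, limma adjusted p = 0.554), and Atp6v1c1 6452 and 6719 against 6941 and 6850 (0.07 ± 0.05, limma adjusted p = 0.598). The catalytic subunit gene Atp6v1a lay at -0.08 with overlapping groups. Both sectors held genes on either side of 0. Both knockout libraries were above both controls for 4 of the 7 V0 genes (57.1%, against 22.0% of all tested genes). They were below both for 0 (against 23.0%). Of the 9 V1 genes, 4 were above both controls (44.4%) and 2 below both (22.2%). With a common total, 3 V0 and 3 V1 genes were above both controls, and with a common upper quartile 5 and 5.

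Lysosomal membrane genes were few. LAMP1 and LAMP2 are the heavily glycosylated proteins that line the membrane, MCOLN1 is a calcium channel, and NPC1 exports cholesterol. Lamp1 had 36022 and 37732 counts in controls and 37654 and 37055 in knockouts (0.02 ± 0.05, limma adjusted p = 0.915), with overlapping groups. Lamp2 had 11558 and 11458 against 12770 and 12070 (0.11 ± 0.05, limma adjusted p = 0.360). Mcoln1 had 1354 and 1440 against 1517 and 1463 (0.09 ± 0.06, limma adjusted p = 0.570). Both Lamp2 and Mcoln1 were above both controls in both knockout libraries. Npc1 lay at -0.02 with overlapping groups.

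Genes of lysosomal lumen proteins had a median log2 fold change of 0.17, with 4 of 5 above 0, although none of these genes passed the test. Hexa (chr9:59539540-59565109), the alpha subunit gene of beta-hexosaminidase A, had 9863 and 10219 counts in controls and 11181 and 11529 in knockouts. Control islets averaged 10041 ± 252 and knockout islets 11355 ± 246 (SD, n = 2 libraries), which is 1.13-fold. The log2 fold change was 0.18 ± 0.05 (interval 0.07 to 0.28; limma adjusted p = 0.128). Exons of Hexa share 12.8% of their bases with an opposite-strand gene. Gaa, the acid alpha-glucosidase that degrades glycogen, had 8040 and 8302 against 8956 and 9621 counts (0.18 ± 0.05, limma adjusted p = 0.151).

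Npc2, which hands cholesterol to NPC1, had 7941 and 8220 counts in controls and 8951 and 8862 in knockouts (log2 fold change 0.14). Grn, the progranulin gene, had 2883 and 3027 against 3201 and 3428 (0.17). In each of these 4 genes every knockout library was above every control (80.0% of the 5 lumenal genes, against 22.0% of all tested genes). Psap (chr10:60277627-60302597), the precursor of the saposins that activate sphingolipid hydrolases, had both knockout libraries below both controls, narrowly so for knockout replicate 1, a separation lost with a common upper quartile. It was the most abundant of all 68 genes per kilobase and had 56495 and 57133 counts in controls and 56422 and 54078 in knockouts (-0.04 ± 0.05, limma adjusted p = 0.795).

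Cathepsins are the lysosomal proteases. Of the 17 genes of the family that the rule took, 10 passed the filter. All 10 had a log2 fold change above 0, with a median of 0.12. Control column 3 of Ctsk lay below 10, so Ctsk met the filter through the knockout libraries, where it was higher. Its direction therefore lends no support. With a filter at 50, which leaves Ctsk out, all 9 cathepsins were above 0, with a median of 0.09. Both knockout libraries were above both controls for 7 of the 10, Ctsk among them (70.0%, against 22.0% of all tested genes). They were below both controls for 0 (against 23.0%). The 7 family members outside the filter were Ctsg, Ctsj, Ctsm, Ctsq and Ctsr, with 0 reads in every library, and Ctse and Ctsw, with at most 6.82 and 2.88 normalized counts. Ctss, which the rule left out and which served as a macrophage marker, went the other way, with overlapping groups. It had 1689 and 1516 counts in controls and 1680 and 1292 in knockouts (-0.12 ± 0.11, limma adjusted p = 0.706).

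Ctsc (chr7:88278085-88310888), a dipeptidyl peptidase that activates granule serine proteases, had 495 and 449 counts in controls and 608 and 551 in knockouts. The log2 fold change was 0.30 ± 0.09 (limma adjusted p = 0.194). Ctsh, an aminopeptidase, had 404 and 349 against 438 and 514 counts (0.34 ± 0.11, limma adjusted p = 0.227). It was 0.22 without knockout replicate 2 and 0.45 without knockout replicate 1. Both genes were modest in level, at 90.5 and 94.7 per kilobase.

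The abundant proteases lay closer to 0. Ctsb had 13892 and 14882 counts in controls and 14434 and 14508 in knockouts, with overlapping groups (0.01 ± 0.05, limma adjusted p = 0.966). Ctsl had 8531 and 8640 against 8905 and 8748 (0.04 ± 0.05, limma adjusted p = 0.762). Ctsd, the aspartic protease and the highest cathepsin per kilobase at 3433, had 7760 and 7882 against 8270 and 8375 (log2 fold change 0.09). Ctsa, the carboxypeptidase that protects beta-galactosidase and neuraminidase, lay at 0.16 and Ctsz, a carboxypeptidase, at 0.15, both without overlap between groups. Ctsf and Ctso lay at 0.03 each, with overlap. Ctsk, a collagen-degrading cathepsin, had 8.77 and 15.3 counts in controls and 16.3 and 22.9 in knockouts.

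**Figure D4:**
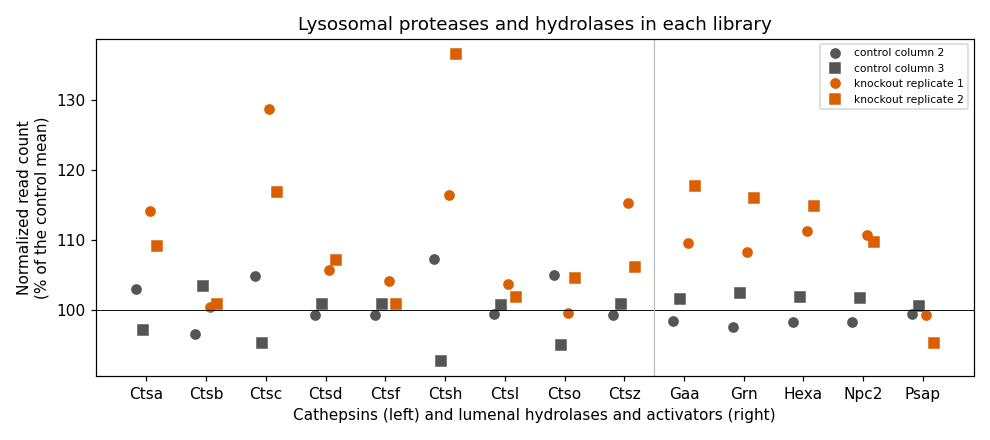
Normalized read count in each library as a percentage of the control mean, for 9 cathepsins (Ctsk, below 23 counts, left out) and 5 lumenal genes. Knockout points lie above both control points for Ctsa, Ctsc, Ctsd, Ctsh, Ctsl, Ctsz, Gaa, Grn, Hexa and Npc2, and below both for Psap, narrowly so for knockout replicate 1.

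The 10 cathepsin and 5 lumenal genes had 14 values above 0 and a median of 0.15. Both knockout libraries were above both controls for 11 of them (73.3%, against 22.0% of all tested genes). Ctsk, which met the filter through the knockout libraries, is among the 11. With a filter at 50, which leaves Ctsk out, 13 of 14 were above 0 (median 0.14). The count above 0 was 13 or 14 in each alternative fit of knockout against control, and the median ran from 0.13 to 0.16. For the cathepsins alone, 9 or 10 were above 0 and at most 1 below, and the median ran from 0.09 to 0.14. Alpha-cell markers had a median log2 fold change of 0.43 and stellate and fibroblast markers one of 0.62 in the same libraries. Acinar markers stood at -0.74 and macrophage markers at 0.01. The sums of these markers by library are given above, and no defining marker was at 0 in all libraries. Their part in the hydrolase values was not tested.

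Genes of the same pathways that the naming rule did not take were examined from lists. None of them passed the test. Of 40 other lysosomal hydrolases and activators, 30 were above 0 and 10 below, with a median of 0.05. Both knockout libraries were above both controls for 18 of these (45.0%, against 22.0% of all tested genes) and below for 2 (against 23.0%). Chosen after their values were seen, Aga, which removes asparagine from glycopeptides, had 4191 and 4124 counts in controls and 4735 and 4872 in knockouts (0.21 ± 0.05, limma adjusted p = 0.0922). Glb1, the beta-galactosidase gene, had 1361 and 1190 against 1511 and 1527 (0.25 ± 0.07, limma adjusted p = 0.160).

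Other lysosomal membrane and sorting genes lay on both sides, with 19 of 31 above 0 and a median of 0.01. With a common total 15 were above 0 and 16 below (median -0.00), and without control column 2 the counts were 14 and 17 (median -0.01). Of 39 other autophagy genes, 14 were above 0 and 25 below, with a median of -0.03. Both knockout libraries were below both controls for 15 (38.5%, against 23.0% of all tested genes). Of the 11038 tested genes with a mean of at least 200 counts, 2978 were below both. Without knockout replicate 2 the list of other autophagy genes had 20 above 0 and 19 below, with a median of 0.00. Chosen after its values were seen, Retreg1, a receptor for autophagy of the endoplasmic reticulum, had 1279 and 1273 counts in controls and 1023 and 787 in knockouts (-0.51 ± 0.11, limma adjusted p = 0.0796). Of 27 genes of mTORC1 signalling at the lysosome, 11 were above 0 and 16 below. Among them Flcn, the folliculin gene, also chosen after its values were seen, had 3070 and 2920 against 2679 and 2641 counts (-0.17 ± 0.05, limma adjusted p = 0.187).

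**Figure D5:**
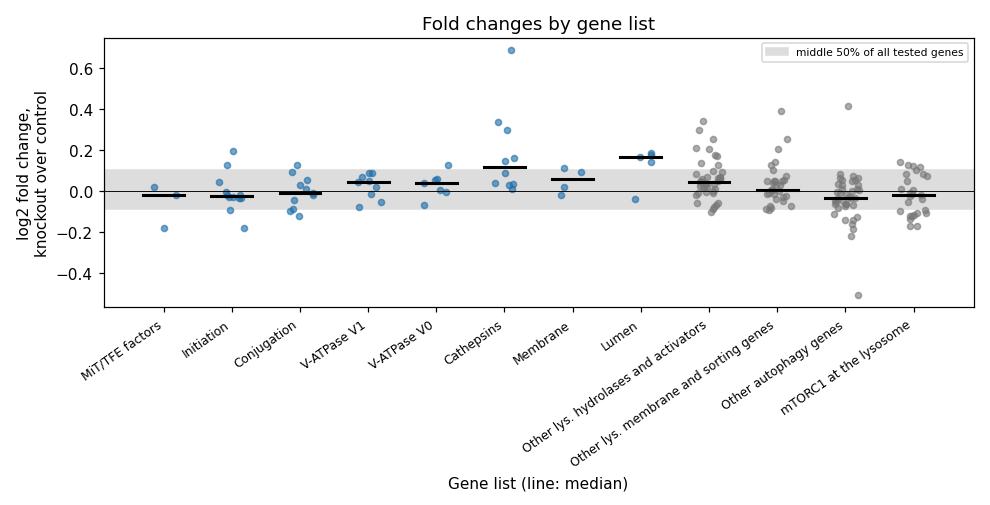
Log2 fold change (knockout over control) of genes by role (blue, without Sqstm1) and of the other pathway genes by list (grey), with list medians as lines and the middle 50% of all tested genes as a grey band. The lines for cathepsins (0.12) and lumenal genes (0.17) lie above the upper edge of the band (0.10), and the other lines lie inside it. Over the alternative fits the cathepsin median ran from 0.09 to 0.14, so it did not always exceed 0.10.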

How the data were processed

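Each deposited value is a signal, namely gene reads that the authors divided by a factor for library size, per the name of the deposited table. Tools listed without roles in the submitters' processing notes are STAR 2.5.1b, CASAVA 1.4, DESeq2 1.22.2 and featureCounts 1.6.0, on GRCm38. Annotation and strand setting are not given in the sources used here. Whole reads were recovered for 100% of values (tolerance 0.01 of a read). The deposited table also gives the authors' log2 fold change, test score and p-value, raw and adjusted. Only the adjusted p-values were used, to count calls.

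Genes that reached 10 in 2 or more libraries were tested with limma 3.58.1 (R 4.3.3) on log2(value + 1), with a mean-variance trend, two-sided, over the whole table. The pseudocount understates changes of low genes. edgeR 4.0.16 (quasi-likelihood, TMM) and DESeq2 1.42.0 were run on recovered reads as alternatives. Libraries of a group differed beyond counting noise (chi-square over degrees of freedom 10.1 and 9.85). Each counted as a replicate because the labels name replicates, which this spread by itself does not establish. Per the series' design text each replicate stands for 2 pooled mice, so the spread between single mice was not measured. An exact permutation test of 2 against 2 libraries cannot go below p = 0.333 (two-sided). Levels per kilobase and gene positions use GENCODE M21 (GRCm38; exon union), in which 99.5% of gene identifiers were found. Exons of 20 members overlap another tested gene, each on the opposite strand. The fit was also run on simulated data with changes larger than those of all members except Ctsk. That run does not show its power for changes of the size described here.

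The members and lists were chosen with earlier results of these data known. Named in full were members past the test (0), the 2 with the smallest p and the 2 most abundant by mean count of each role, and Tfeb, Tfe3, Mitf, Lamp1, Lamp2, Sqstm1, Becn1 and Ulk1. A few of these are not reported here. The marker lists covered beta, alpha, delta, acinar, duct and endothelial cells, macrophages, and stellate cells with fibroblasts. Median log2 fold changes of those not given in the report were -0.06 for beta, 0.11 for delta, 0.16 for duct and 0.02 for endothelial markers. Alternatives were pseudocounts of 0.5 and 5, no filter, a filter at 50, other scalings, limma without the trend or with robust moderation, the count tests and leaving out each library.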

Additional observations from a re-analysis of the deposited data

How the results depend on the processing

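In every alternative run, 0 of the lysosome and autophagy genes were called higher and 0 lower. Their median log2 fold change was 0.02, and 0.043 with a common upper quartile. Leaving out each library in turn gave 0.012 (without control column 2) to 0.048 (without control column 3). The medians of the V1, V0 and membrane genes, 0.04, 0.04 and 0.06, were 0.017, 0.036 and 0.017 without control column 2, and 0.016, 0.018 and 0.037 without knockout replicate 1. Counts over all tested genes, 41 higher and 62 lower, were 1 and 1 with no filter, 19 and 32 with a filter at 50, 0 and 0 without the trend, 85 and 124 with robust moderation, and 111 and 203 with DESeq2. Without the trend, 2 members had an unadjusted p under 0.05, and with a common total 12 did. Leaving out a library gave 49 to 178 genes higher and 47 to 219 lower, the highest of each without control column 2. The cause was not tested. Some genes named with full values changed sign between fits, and the range was widest for Tfeb. With a common total, Atp6v0a1 moved to -0.0036, and with a common upper quartile Atp6v1b2 moved to 0.0025. Leaving out a library gave -0.040 to 0.059 for Ctsb, -0.036 to 0.093 for Atg3, -0.13 to 0.061 for Atg13, -0.015 to 0.052 for Lamp1, -0.063 to 0.023 for Mitf, -0.20 to 0.23 for Tfeb and -0.047 to 0.055 for Atp6v0a1. No paired analysis was possible because the control columns carry the numbers 2 and 3 and could not be tied to the replicate numbers of the labels.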
